A study of Homo sapiens with 7 samples.

Results

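The genes described here encode keratins, claudins and other tight junction proteins, and the proteins of desmosomes, in BHT-101, a human anaplastic thyroid cancer cell line. They were chosen by symbol: KRT followed by digits, CLDN followed by digits, DSC or DSG followed by a digit, PKP or TJP followed by a digit, and a set of named genes (DSP, JUP, PPL, EVPL, OCLN, CGN, F11R, MARVELD2 and MARVELD3). This rule found 36 of the 13142 genes in the table: 12 keratins, 8 claudins, 3 other tight junction membrane proteins, 4 tight junction scaffold proteins, 2 desmosomal cadherins and 7 proteins of the desmosomal plaque. The tested libraries came from 4 clones with premature stop codons in ASH1L, a histone H3 lysine methyltransferase: KO1 (stop after residue 413, both alleles), KO2 (residue 610, both alleles), KO3 (residue 2129, both alleles) and KO4 (residues 2169 and 2174). They were compared with 3 biological replicates of wild-type (WT) BHT-101 cells grown in the same medium. Each KO line is 1 clone sequenced once. No clone with intact ASH1L was analysed, so loss of ASH1L and other differences between a clone and the WT cells cannot be told apart.

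Keratins form the intermediate filaments of epithelial cells by pairing a type I with a type II chain. KRT8 and KRT18 are the usual pair of simple epithelia such as the thyroid follicle, with KRT7 and KRT19 as further simple-epithelial chains. Desmosomes anchor these filaments at cell contacts: the cadherins DSG2 and DSC2 bind the neighbouring cell, plakoglobin (JUP) and plakophilins bind the cadherin tails, and desmoplakin (DSP) links them to keratin. Tight junctions seal the space between cells with claudins, occludin (OCLN) and tricellulin (MARVELD2), which are held by the scaffold proteins such as TJP1, TJP3 and cingulin (CGN).

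Values are log2 RPKM, that is reads per kilobase of exon, scaled to library size, on a log2 scale, with effective libraries of 44.0 to 70.4 M reads. At the highest levels described here counting error is small, and at the lowest, which rest on fewer than 100 reads, it is not. Of 10 epithelial markers, 8 had values and all 8 were kept for testing. Of 13 thyroid follicular markers 3 had values (PAX8, DIO2 and HHEX), and thyroglobulin, thyroid peroxidase and the TSH receptor were not analysed here. ASH1L itself was at 2.69, 2.54, 2.42 and 3.74 in KO1 to KO4 and at 3.34, 3.30 and 3.22 in WT1 to WT3, so KO4 was above WT. A premature stop need not lower a transcript, so this is no check of the labels. Of markers of other cell types, CD3D was the 1 kept leukocyte gene (mean log2 RPKM -2.92 ± 3.34 in KO, n = 4, and 3.24 ± 0.17 in WT, n = 3, SD). The summed RPKM of the 2 of 10 leukocyte markers with values was 0.479 to 2.99 in KO and 9.09 to 11.9 in WT. That of 3 of 10 fibroblast markers was 20.4 to 70.1 in KO and 51.2 to 55.1 in WT, and 1 of 6 endothelial markers had values, at 0.0503 to 0.720 RPKM in KO and 0.275 to 0.325 in WT. Their part in the results below was not tested. In bulk RNA, fewer cells of a type and less RNA per cell cannot be told apart.

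The clones did not change these genes as a group in the same way. When the 4 clones were treated as replicates, 0 of the 29 members kept for testing passed the threshold (limma, adjusted p under 0.05), where 0.412% of all 11154 kept genes passed. Without adjustment, 5 members had p under 0.05 (KRT4, KRT18, CLDN2, DSC2 and DSP), where 15.7% of all genes did. The lowest adjusted p was 0.140, for KRT18. A fit on reads recovered from the RPKM values, with voom weights in limma, also called 0 members (lowest adjusted p = 0.0901). Without KO2, 2 members passed, CLDN2 and KRT18, where 236 of all 11154 kept genes passed, against 46 with all clones. The clones differed from each other far more than the WT samples did: the median SD over kept members was 0.82 log2 units in KO and 0.12 in WT, against 0.30 in KO and 0.10 in WT over all kept genes. The SD was larger in KO for 27 of 29 kept members, and for 90.4% of all kept genes.

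Each clone was therefore also set against WT alone, and below, "rose" and "fell" refer to these single-clone fits. A clone is 1 library, so these fits borrow the spread of the WT samples and assume that a clone is as variable as WT. KO1 had 21 of 29 kept members past the threshold, where 44.1% of all genes passed: 5 were higher (19.2% of all genes) and 16 lower (24.9%). KO2 had 12, where 33.5% of all genes passed: 8 were higher (15.5%) and 4 lower (18%). KO3 had 17, where 34.1% of all genes passed: 4 were higher (14.2%) and 13 lower (19.9%). KO4 had 18, where 24.8% of all genes passed: 4 were higher (10.4%) and 14 lower (14.4%). Without WT2 the counts were 19, 10, 9 and 9 in KO1 to KO4, where 27.7%, 15.6%, 15.3% and 10.3% of all genes then passed. As shares of the kept members these counts are 72.4%, 41.4%, 58.6% and 62.1% for KO1 to KO4. The filter asked for a log2 RPKM over 0 in 3 or more libraries, so a gene expressed in WT alone could pass and one expressed in a single clone could not. DSC2, KRT17 and PPL were at or under 0 in every WT sample and were kept through the clones in which they are high, so that their place among the higher members follows in part from the filter.

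Counts over all 36 members do not depend on that filter. In KO1, 20 members lay below the lowest WT sample (41.4% of all genes of the table did) and 9 above the highest (41.8% of all genes). In KO2, 12 lay below (38.7% of all genes) and 19 above (41.3%). In KO3, 23 lay below (41.9%) and 11 above (39.1%), and in KO4, 21 below (38.7%) and 11 above (39%). Over the 36 members the median difference from the WT mean was -0.24, 0.12, -0.41 and -0.23 for KO1 to KO4, while the medians over all genes of the table lay between -0.01 and 0.01.

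**Figure D1:**
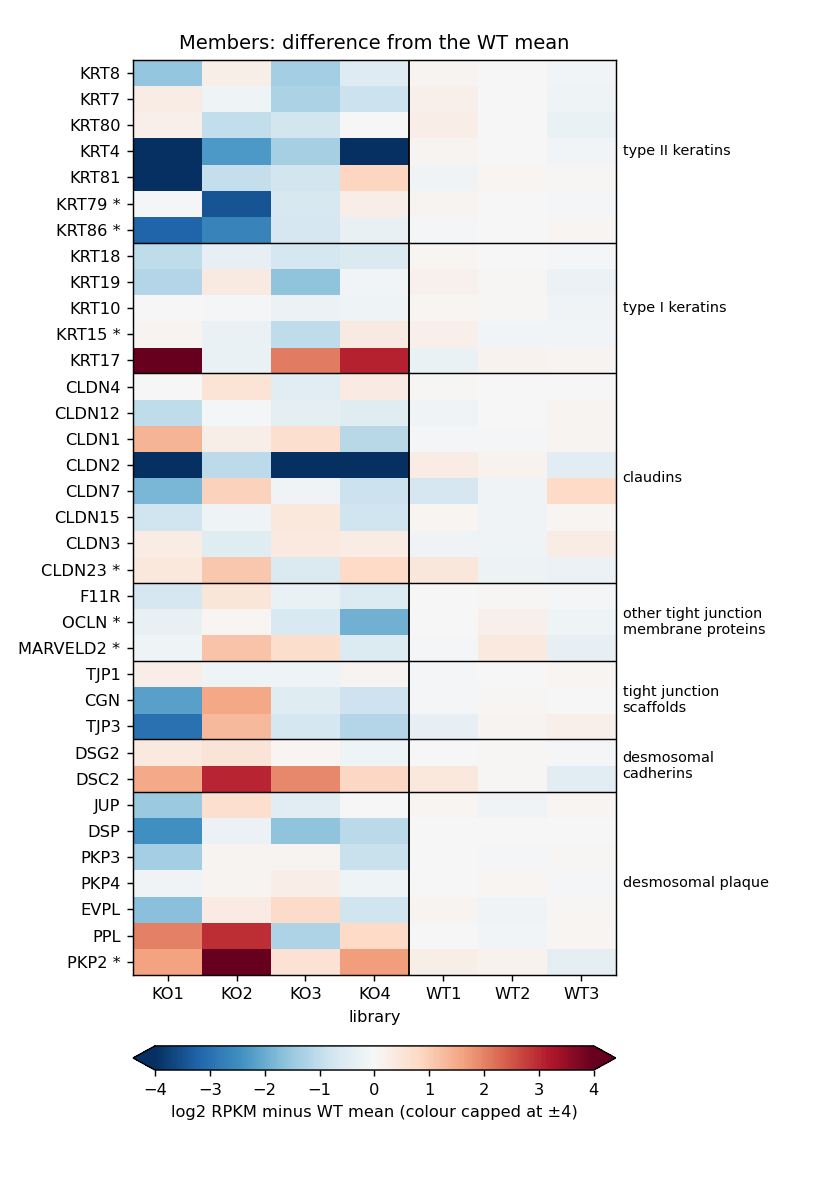
Difference of 35 members (rows, grouped by role) from its WT mean in log2 RPKM, for 4 KO clones and 3 WT samples (columns); blue is lower and red is higher, colours stop at 4 log2 units, and an asterisk marks the 7 members not kept for testing. The WT columns are nearly white, the KO1, KO3 and KO4 columns are mostly blue, and the KO2 column is red in much of the junction part.

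KO and WT did not overlap in 5 of the 29 kept members, where 19% of all kept genes did not. KRT4, KRT18, CLDN2 and DSP were below WT in every clone (4 members, beside 10.1% of all kept genes) and DSC2 was above it (1 member, beside 8.88% of all kept genes). DSC2 was kept through KO1, KO2 and KO3, so its count above WT is no support for a direction. Of the 7 members that were not kept, KRT86 was below and PKP2 above WT in every clone on the RPKM scale. In reads both overlapped with WT. KRT86 had 89 reads in KO4, against 83, 96 and 97 in WT1 to WT3, and PKP2 had 23 in KO3, against 23, 24 and 16. Effective libraries were 44.0 M reads in KO3 and 70.4 M in KO4, against 56.4 to 63.0 M in WT, so an overlap in reads is not an overlap in level. As for all levels here, the places of KRT86 and PKP2 rest on the scaling to library size. The shares given here cover kept genes only. KRT4 and KRT18 fell in all 4 single-clone fits, as did 2.3% of all genes, and 0 members rose in all 4, beside 1.13% of all genes. CLDN3, KRT10, PKP4 and TJP1 passed in no clone.

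Over the 5 kept type II keratins the median difference from the WT mean was -1.56, -0.96, -1.27 and -0.51 in KO1 to KO4. Medians over all kept genes ranged from -0.018 to -0.0005. KRT8, the type II chain with the most transcript per length in every library but KO1, where KRT7 had more, fell in KO1, KO3 and KO4. It was at 5.64, 7.42, 5.83 and 6.68 log2 RPKM in KO1 to KO4, against 7.31, 7.20 and 7.07 in WT1 to WT3. KO2 was the highest library of the 7 and the other clones were the lowest, at 0.340 (KO1), 0.388 (KO3) and 0.701 (KO4) times WT. Over the 4 clones together the log2 fold change was -0.80 ± 0.41 (SE, adjusted p = 0.380).

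KRT7, a marker of simple and glandular epithelia, fell in KO3 and KO4. Its levels were 6.71, 6.23, 5.13 and 5.55 in KO1 to KO4 and 6.60, 6.38 and 6.22 in WT1 to WT3. KO1 was just above the WT samples and KO2 among them. KRT80, a keratin of many epithelia whose partner is less well known, fell in KO2 and KO3, with 4.56, 3.38, 3.62 and 4.34 in KO1 to KO4, against 4.63, 4.36 and 4.09 in WT. The groups overlapped for both genes, and the KO log2 fold changes were -0.50 ± 0.36 (SE, adjusted p = 0.525) for KRT7 and -0.38 ± 0.30 (adjusted p = 0.565) for KRT80. Single libraries moved both values: KRT7 was at -0.24 without KO3 and -0.76 without KO1, and KRT80 at -0.18 without KO2, -0.25 without WT1 and -0.58 without KO1.

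KRT4 (chromosome 12, 52806549 to 52814551, minus strand, hg38), a keratin of non-cornified stratified epithelia such as the oesophagus, fell in every clone. It had 0, 266, 362 and 1 reads in KO1 to KO4 and 1277, 1309 and 1140 reads in WT1 to WT3. On the log2 RPKM scale this was -9.58, 0.35, 1.31 and -7.48 in the clones and 2.77, 2.65 and 2.53 in WT. KO1 and KO4 thus held almost no KRT4 transcript, while KO2 and KO3 held 0.202 and 0.396 times the WT level. A count of 0 in KO1 allows up to 3 reads, or 0.0185 RPKM, so KRT4 was at least 341-fold lower there than the WT mean of 6.29 RPKM, counting error only. The fitted log2 fold change of the 4 clones together, -6.50 ± 2.67 (SE, adjusted p = 0.299), depends on the prior count of the deposited values where reads are absent and is not a measure of size; on log2 of RPKM plus 1 it was -2.12.

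KRT81, a hair keratin, moved both ways. It was at -2.23, 0.94, 1.16 and 2.76 in KO1 to KO4, against 1.77, 1.98 and 1.94 in WT1 to WT3. It fell in KO1, KO2 and KO3 and rose in KO4, where it was 1.82 times WT, while KO1 had 20 reads left, against 371 to 479 in WT. KRT86, its close paralog, was at -3.84, -3.31, -1.32 and -0.92 in KO1 to KO4 and at -0.70, -0.65 and -0.55 in WT. It was described after its values had been seen and was too low to be tested. KRT79 was likewise too low, with 11 reads in KO2 and 55 to 166 in the other clones, against 111 to 122 in WT.

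Among the 4 kept type I keratins, KRT18 fell in all clones, KRT19 fell in KO1 and KO3, and KRT17 rose in KO1, KO3 and KO4. KRT18 (chromosome 12, 52948871 to 52952901, plus strand, hg38), the partner of KRT8, was at 6.70, 7.37, 7.01 and 7.14 in KO1 to KO4 and at 7.78, 7.72 and 7.61 in WT1 to WT3. The groups did not overlap. From KO1 to KO4 the clones held 0.499, 0.793, 0.617 and 0.675 times the WT level, and each difference passed in its single-clone fit (adjusted p lowest in KO1, at 0.000576, and highest in KO2, at 0.0492). Over the 4 clones the log2 fold change was -0.65 ± 0.16 (SE, adjusted p = 0.140). Without KO2 it was -0.75 and passed (adjusted p = 0.0486), with CLDN2 the other member that passed in that setting.

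KRT19, the smallest keratin and a chain of simple epithelia, was at 6.26, 7.79, 5.83 and 7.32 in KO1 to KO4 and at 7.61, 7.50 and 7.21 in WT1 to WT3. KO1 and KO3 lay below all WT samples, KO2 above them and KO4 among them. KRT10, the type I keratin of differentiating epidermis, stayed within a narrow range, with 3.40, 3.33, 3.16 and 3.22 in the clones and 3.48, 3.44 and 3.26 in WT. Its KO log2 fold change was -0.12 ± 0.11 (SE, adjusted p = 0.639), or -0.07 without WT1 and -0.18 without WT3, and its SD over the clones, 0.11, was the smallest of the 29 kept members. With the median of the genes within 5 Mb subtracted, the fold change of KRT10 was -0.47 ± 0.10 (SE, limma adjusted p = 0.177). KRT15, a basal-layer keratin, was not kept, because its log2 RPKM was over 0 in fewer than 3 libraries. It had 137 to 564 reads in the clones and 348 to 405 in WT, spread over 7069 exon bases. The filter on RPKM thus left it out, not a lack of reads.

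KRT17 (chromosome 17, 41619441 to 41624842, minus strand), a keratin of basal and wounded epithelia, rose in KO1, KO3 and KO4. It had 1855, 44, 156 and 492 reads in KO1 to KO4 and 39, 58 and 54 in WT1 to WT3. In log2 RPKM the clones were at 3.90, -1.86, 0.48 and 1.46 and the WT samples at -1.87, -1.46 and -1.48. KO1, KO3 and KO4 were 45.3, 4.24 and 8.36 times WT, whereas KO2 lay within the WT range. KRT17 was kept for testing through KO1, KO3 and KO4, so that its passing in these clones follows in part from the filter. The fit over all 4 clones gave 2.60 ± 1.17 (SE, limma adjusted p = 0.339). That value was 1.63 without KO1, 4.14 after quantile normalization and 1.47 on log2 of RPKM plus 1, and passed in none of these settings. Even in KO1, KRT17 made up 3.87% of summed keratin RPKM, against 0.0381% to 0.0605% in WT.

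**Figure D2:**
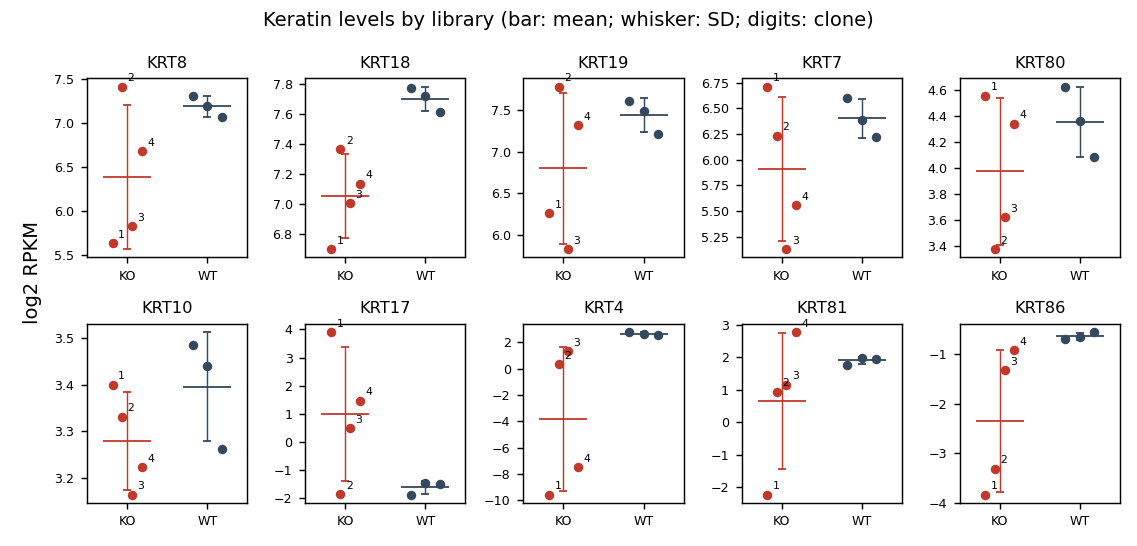
Level of 10 keratins in log2 RPKM (y axes differ) in 4 KO clones, whose digits name the clone, and 3 WT samples; horizontal bars are means and whiskers SDs. KRT18, KRT4 and KRT86 show no overlap between KO and WT, and KRT17 is high in clones 1, 3 and 4.

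Because type I and type II chains pair, their sums were compared. Summed keratin RPKM was 386, 657, 306 and 492 in KO1 to KO4 and 720, 666 and 592 in WT1 to WT3, so that KO1, KO3 and KO4 held 0.585, 0.464 and 0.746 times the WT mean and KO2 0.997 times. Type I transcripts per type II transcript were 1.16, 1.53, 1.79 and 1.76 in KO1 to KO4, against 1.46, 1.54 and 1.50 in WT. KO1 had fewer type I per type II transcripts than any WT sample and KO3 and KO4 had more, so the clones did not share a direction. KRT18 per KRT8 was 2.09, 0.966, 2.26 and 1.37 in KO1 to KO4 and 1.38, 1.44 and 1.46 in WT1 to WT3. KRT18 and KRT8 overlap at their ends on opposite strands and share 525 exon bases, 16.3% of KRT18's and 7.63% of KRT8's exon length. Neither the strand setting of the counting nor the handling of reads that match several copies is stated by the labels, so reads of this overlap, of keratin pseudogenes and of the paralogs KRT81 and KRT86 are uncertain.

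The makeup of the keratin pool also differed between clones. KRT7 was 27.2% of summed keratin RPKM in KO1, against 9.54% to 11.5% in the other clones and 12.6% to 13.5% in WT. KRT18 was 42.1% in KO3, where the other clones had 25.1% to 28.6% and WT had 30.4% to 33.1%. KRT19 was 33.6% in KO2 and 32.5% in KO4, and 19.8% in KO1 and 18.5% in KO3, against 27.2%, 27.1% and 25% in WT1 to WT3.

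**Figure D3:**
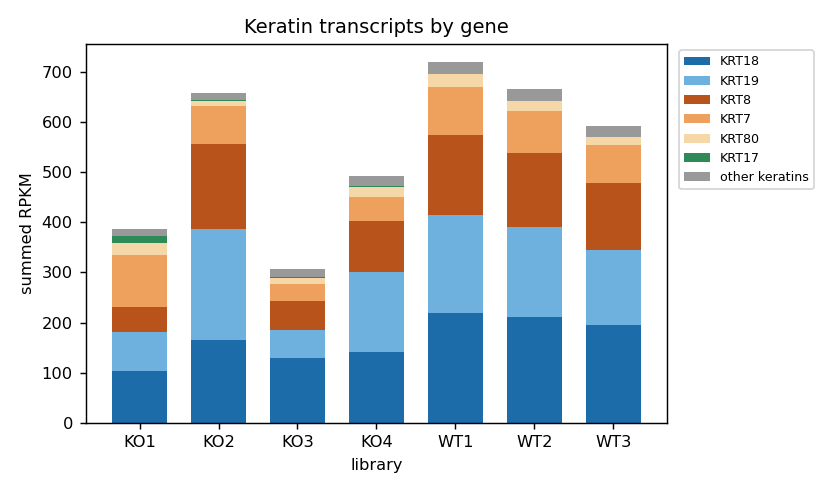
Summed RPKM of the 12 keratins (y axis) in each library (x axis), stacked by gene. The columns of KO1 and KO3 (386 and 306) are the shortest, KO2 (657) is as tall as WT (592 to 720), and KO1 is the library in which KRT17 is visible.

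Among claudins the abundant CLDN4 stayed between 0.749 (KO3) and 1.46 (KO2) times WT, while CLDN2 was down to a few reads in 3 clones. Over the 7 kept claudins the median difference from the WT mean was -0.81, -0.06, -0.13 and -0.79 in KO1 to KO4, beside -0.018 to -0.0005 over all kept genes. CLDN2 (X chromosome, 106900164 to 106930861, plus strand), which forms a cation-selective pore, was at -4.75, 0.37, -4.20 and -4.29 log2 RPKM in KO1 to KO4, against 1.74, 1.57 and 0.98 in WT1 to WT3. The reads were 6, 278, 8 and 12 in the clones and 640, 639 and 402 in WT, so KO2 was the clone nearest to WT. CLDN2 fell in KO1, KO3 and KO4 (adjusted p from 3.86e-05 to 0.000196), and KO2 was at -1.06 ± 0.36 (SE, adjusted p = 0.0617). Over the 4 clones the log2 fold change was -4.65 ± 1.25 (SE, adjusted p = 0.160). Without KO2 it was -5.84 and passed (adjusted p = 0.0181), and on log2 of RPKM plus 1 it was -1.54. CLDN2 shares 341 exon bases (10.0% of its exon length) with RIPPLY1 on the opposite strand.

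CLDN4, a barrier-forming claudin that made up 46.1% to 67.2% of summed claudin RPKM in KO and 48.2% to 53.7% in WT, was at 5.12, 5.69, 4.73 and 5.49 in KO1 to KO4 and at 5.19, 5.12 and 5.13 in WT1 to WT3. It rose in KO2 and KO4 and fell in KO3. CLDN1, a barrier claudin needed for the epidermal barrier in mice, was at 3.86, 2.75, 3.17 and 1.40 in the clones and 2.45, 2.45 and 2.63 in WT. It rose in KO1 and KO3 and fell in KO4. CLDN12, which lacks the PDZ-binding tail of other claudins, was at 3.15, 4.11, 3.77 and 3.70 in KO1 to KO4 and at 4.02, 4.20 and 4.30 in WT, and fell in KO1 and KO4. The KO log2 fold changes were 0.11 ± 0.22 for CLDN4, 0.29 ± 0.51 for CLDN1 and -0.49 ± 0.22 for CLDN12 (SE), with adjusted p = 0.836, 0.813 and 0.333. With 1 library left out CLDN4 ranged from -0.03 (without KO2) to 0.29 (without KO3) and CLDN1 from -0.07 (without KO1) to 0.75 (without KO4), and CLDN12 was at -0.31 without KO1 and -0.13 with its chromosome neighbours subtracted.

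Of the other 4 claudins, CLDN7 fell in KO1 alone of the 4 fits, and its WT samples were spread from 0.64 to 2.13. CLDN15 fell in KO1 and KO4, and CLDN3 passed in no clone. CLDN23 was too low to be tested, with 36 to 166 reads in the clones and 62 to 96 in WT.

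Of the other tight junction proteins, the large scaffold TJP1 passed in no clone, and CGN and TJP3 differed strongly between clones. F11R, the junctional adhesion molecule JAM-A, was at 2.32, 3.47, 2.72 and 2.46 in KO1 to KO4 and at 2.98, 3.04 and 2.96 in WT1 to WT3. F11R fell in KO1 and KO4 and rose in KO2. Another annotated gene on its strand shares 36.6% of its exon length, so its level is uncertain. Occludin (OCLN) and MARVELD2, the membrane proteins of bicellular and tricellular contacts, were too low to be tested. OCLN was at -1.81, -1.42, -2.11 and -3.43 in KO1 to KO4, against -1.53, -1.32 and -1.68 in WT, with KO4 the lowest library at 44 reads.

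CGN, cingulin, which binds actomyosin to the junction, was at -0.75, 2.96, 0.96 and 0.61 in KO1 to KO4 and at 1.38, 1.48 and 1.43 in WT1 to WT3. It fell in KO1, KO3 and KO4 and rose in KO2, where it was 2.89 times WT. TJP3, a zonula occludens protein, was at -2.93, 1.35, -0.66 and -1.12 in the clones and at -0.27, 0.16 and 0.24 in WT. It fell in KO1 and KO4 and rose in KO2, and KO3 lay below WT without passing. TJP1 was at 2.24, 1.82, 1.80 and 2.10 in the clones and at 1.92, 1.98 and 2.06 in WT. The KO log2 fold change of TJP1 was 0.01 ± 0.15 (SE, limma adjusted p = 0.988).

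Of the desmosomal cadherins, DSC2 was above WT in every clone and DSG2 in KO1, KO2 and KO3, while desmoplakin, the keratin linker of the plaque, was below WT in every clone. DSG2, the main desmoglein of simple epithelia and over 96.5% of desmosomal cadherin RPKM in each library, was at 6.19, 6.33, 5.89 and 5.61 in KO1 to KO4 and at 5.80, 5.85 and 5.76 in WT1 to WT3. It rose in KO1 and KO2. DSC2 (chromosome 18, 31058840 to 31102522, minus strand), the desmocollin of the same epithelia, was at 0.01, 1.54, 0.41 and -0.68 in the clones and at -1.08, -1.46 and -1.96 in WT. The groups did not overlap, with KO2 the farthest at 8.21 times WT and KO4 the nearest at 1.76 times. DSC2 rose in KO1, KO2 and KO3, the clones through which it had been kept for testing, and did not pass in KO4. The 4 clones together were at 1.82 ± 0.56 (SE, limma adjusted p = 0.192). After quantile normalization that value was 3.41 (adjusted p = 0.0561), and on log2 of RPKM plus 1 it was 0.78 (adjusted p = 0.237).

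Over the 6 kept plaque genes the median difference from the WT mean was -1.42, 0.23, -0.15 and -0.48 in KO1 to KO4, beside -0.018 to -0.0005 over all kept genes. DSP (chromosome 6, 7541575 to 7586717, plus strand) was at 1.66, 3.90, 2.52 and 3.04 in KO1 to KO4 and at 4.11, 4.12 and 4.14 in WT1 to WT3. Its WT samples were within 0.03 log2 units of each other and every clone lay below them, at 0.182, 0.853, 0.329 and 0.471 times WT from KO1 to KO4. DSP fell in KO1, KO3 and KO4, KO2 did not pass (adjusted p = 0.118), and the log2 fold change over the clones was -1.34 ± 0.46 (SE, adjusted p = 0.228). JUP, which is shared by desmosomes and adherens junctions, was at 3.27, 5.43, 4.34 and 4.75 in the clones and at 4.82, 4.60 and 4.81 in WT. It fell in KO1 and KO3 and rose in KO2, and KO4 lay within the WT range. PKP3, a plakophilin of most epithelia, was at 2.16, 3.64, 3.64 and 2.64 in KO1 to KO4 and at 3.56, 3.47 and 3.56 in WT, and fell in KO1 and KO4.

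The plakins that bind keratin at the cell cortex moved apart. PPL, periplakin, was at 1.66, 2.61, -1.58 and 0.45 in KO1 to KO4 and at -0.35, -0.45 and -0.26 in WT1 to WT3. It rose in KO1, KO2 and KO4, at 4.03, 7.79 and 1.74 times WT, and fell in KO3, at 0.427 times. PPL had been kept for testing through KO1, KO2 and KO4, so that its rise there follows in part from the filter. EVPL, envoplakin, its partner, was at -1.46, 0.55, 0.99 and -0.59 in the clones and at 0.32, 0.07 and 0.25 in WT. EVPL fell in KO1 and KO4 and rose in KO3, so PPL and EVPL moved in opposite directions in KO1, KO3 and KO4. PKP2, a plakophilin of simple epithelia and heart, had 52, 717, 23 and 78 reads in KO1 to KO4 and 23, 24 and 16 in WT. Its level was above WT in every clone on the RPKM scale, and it was named after its values had been seen and was too low to be tested.

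Summed plaque RPKM was 29.5, 89.9, 52.0 and 51.8 in KO1 to KO4 and 68.6, 64.5 and 68.6 in WT1 to WT3. KO1 was the lowest library and KO2 the highest. DSP made up 10.7%, 16.6%, 11.1% and 15.9% of this sum in KO1 to KO4 and 25.2%, 27.0% and 25.7% in WT, so its share was smaller in each clone than in any WT sample. JUP had the largest share in each library, from 32.6% to 51.8% in KO and from 37.7% to 41.1% in WT.

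**Figure D4:**
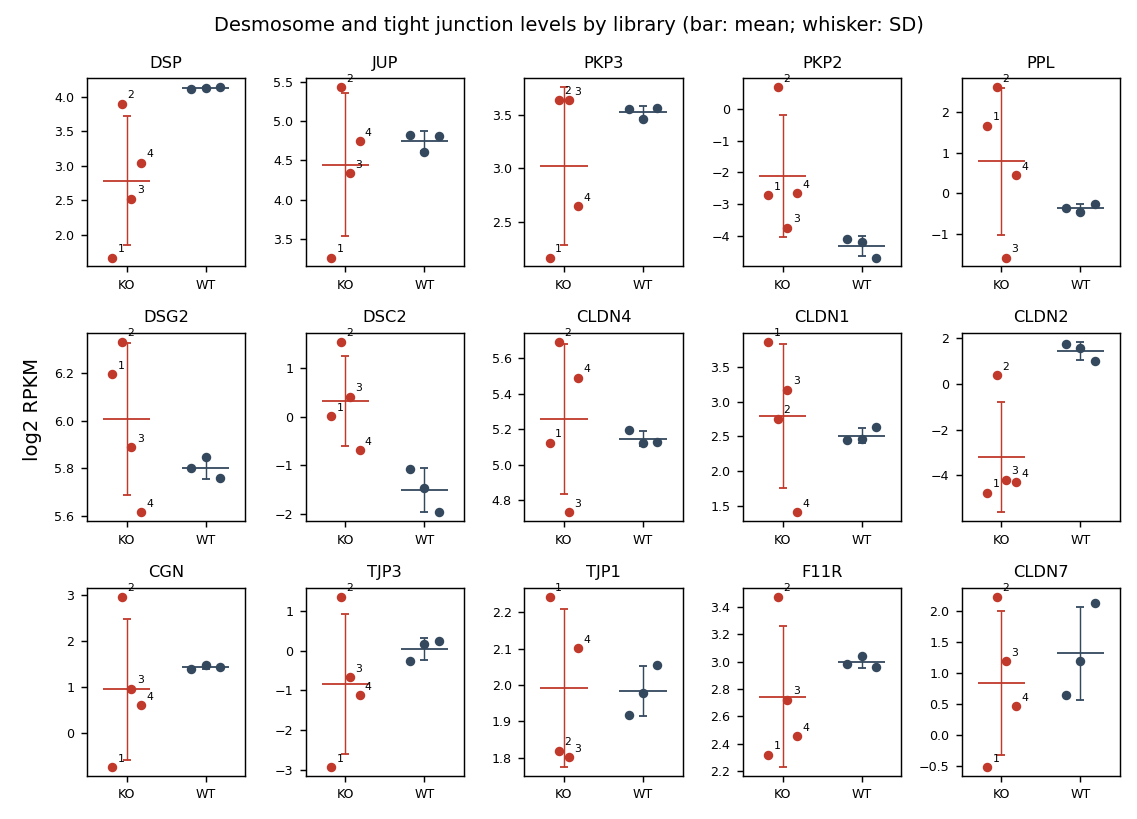
Level of 15 junction genes in log2 RPKM (y axes differ) in 4 KO clones, whose digits name the clone, and 3 WT samples; horizontal bars are means and whiskers SDs. DSP and CLDN2 lie below WT and DSC2 and PKP2 above it in every clone, while CGN and TJP3 are high in clone 2 and low in clone 1. PKP2 had 23 reads in clone 3, against 23, 24 and 16 in WT1 to WT3.

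In KO1, KO3 and KO4 together, 6 kept members fell (CGN, CLDN2, DSP, KRT18, KRT4 and KRT8), where 5.88% of all genes did, and 1 rose (KRT17), where 2.5% of all genes did. KRT17 had been kept for testing through these 3 clones, so its count says nothing more. In KO2, CGN rose, KRT18 and KRT4 fell, and CLDN2, DSP, KRT8 and KRT17 did not pass. This grouping of the clones was made after their values had been seen, and the difference of KO2 from the other clones was not tested.

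The sequence just upstream of the start was examined for the members whose clones all lay on one side of WT. RefSeq promoters (GRCh38.p14) were at hand for 21 of the 36 members, among them KRT4, CLDN2, DSP and DSC2, but not KRT18. The 250 bases before the RefSeq start are shown 5′ to 3′ on the gene's strand. Each copy of the GC box GGGCGG, or its reverse complement, is in capitals, and adjoining copies run together. RefSeq starts differ from the GENCODE positions printed above. The KRT4 window lies within the GENCODE gene, and the DSP and DSC2 windows overlap the start of theirs, so these bases are in part within annotated genes.
KRT4 (chr12:52814117-52814366, minus strand): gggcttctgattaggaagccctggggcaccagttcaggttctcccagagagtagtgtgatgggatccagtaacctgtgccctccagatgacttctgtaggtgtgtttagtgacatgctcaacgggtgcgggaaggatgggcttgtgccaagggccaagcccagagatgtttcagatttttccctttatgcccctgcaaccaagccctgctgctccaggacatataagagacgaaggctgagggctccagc
CLDN2 (chrX:106899914-106900163, plus strand): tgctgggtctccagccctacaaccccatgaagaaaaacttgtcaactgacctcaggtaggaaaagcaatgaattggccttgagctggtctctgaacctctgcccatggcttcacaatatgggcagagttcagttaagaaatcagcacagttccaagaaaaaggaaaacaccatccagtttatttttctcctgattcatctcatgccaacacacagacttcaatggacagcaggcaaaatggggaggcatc
DSP (chr6:7541421-7541670, plus strand): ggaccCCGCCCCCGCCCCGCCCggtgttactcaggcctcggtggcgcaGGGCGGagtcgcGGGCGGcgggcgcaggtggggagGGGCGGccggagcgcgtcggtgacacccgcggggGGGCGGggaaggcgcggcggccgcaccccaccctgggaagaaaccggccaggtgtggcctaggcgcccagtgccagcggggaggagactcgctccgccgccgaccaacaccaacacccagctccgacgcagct
DSC2 (chr18:31102422-31102671, minus strand): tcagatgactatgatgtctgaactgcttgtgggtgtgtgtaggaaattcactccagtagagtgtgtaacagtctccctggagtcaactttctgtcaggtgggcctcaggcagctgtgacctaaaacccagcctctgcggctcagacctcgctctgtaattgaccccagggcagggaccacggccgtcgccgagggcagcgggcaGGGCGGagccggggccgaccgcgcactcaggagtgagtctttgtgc
The DSP promoter held 7 copies and was 78.0% GC, and the DSC2 promoter held 1 copy and was 59.6% GC. KRT4 (54.8% GC) and CLDN2 (46.0% GC) held 0 copies, as did a second CLDN2 start, while a second DSC2 start held 2. Over all 35116 promoters of this length 42.6% held a copy, and the median GC content was 58.0%. The 21 members with an entry had 31 promoters between them, some of them for the same gene, and 20 of these (64.5%) held one. KRT4 and CLDN2 had less GC than the median promoter and DSP had more. No methylation or binding was measured here.

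Many members lie in gene clusters, and their neighbours were compared with them. All 8 keratins on chromosome 12 lie between 52168996 and 52952901 (hg38), including the type I gene KRT18, and the 4 on chromosome 17 lie between 40818117 and 41624842. KRT17 is 91.1 kb from KRT19 and 130 kb from JUP. Genes within 5 Mb of KRT17 and KRT19 had a median difference from WT of 0.39 in KO1, 0.38 in KO3 and 0.31 in KO4, and in KO2 of 0.35 for KRT17 and 0.34 for KRT19. The neighbours were thus higher in all clones, while KRT17 rose in 3 of them and KRT19 fell in 2. Relative to its neighbours KRT19 was at -1.57, 0.01, -2.0 and -0.43 in KO1 to KO4, and KRT17 at 5.11, -0.60, 1.70 and 2.75.

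On chromosome 12, the genes within 5 Mb of KRT18 had medians of -0.35, -0.12, -0.18 and -0.20 in KO1 to KO4, so all of them were below 0. Relative to these neighbours KRT18 was at -0.65, -0.22, -0.52 and -0.37, and KRT8 at -1.21, 0.35, -1.19 and -0.31. Neighbours of CLDN2 on the X chromosome were at -0.42, -0.26, -0.45 and -0.40, against which CLDN2 was at -5.76, -0.80, -5.18 and -5.31. Next to CLDN12 on chromosome 7 the median was -0.81 in KO1, where CLDN12 itself was at -1.02 and thus at -0.22 relative to them. For DSP, DSC2 and KRT4 the values relative to neighbours kept the direction of the values against WT in each clone. With neighbours subtracted from every gene, 0 members passed (lowest adjusted p = 0.177, for KRT10) and 1 of 10575 positioned genes did.

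**Figure D5:**
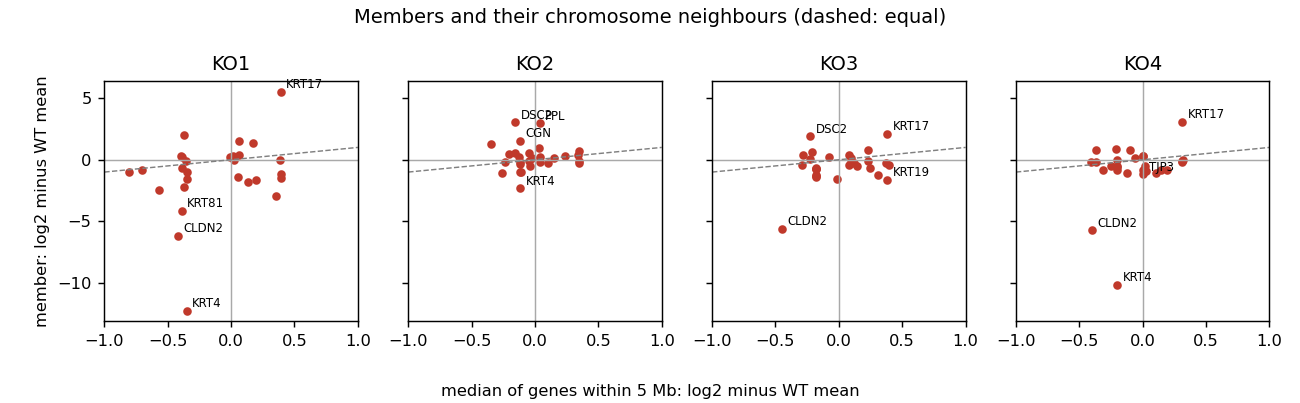
Difference from WT in log2 units of kept members (y axis) against the median of their neighbours, the genes less than 5 Mb away (x axis), 1 panel per clone; the dashed line marks equal values. Neighbour medians stay within 1 log2 unit of 0, whereas KRT17 in KO1, KO3 and KO4, KRT4 in KO1 and KO4, and CLDN2 in KO1, KO3 and KO4 lie far from the line.

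Genes of neighbouring structures were read from lists of their own. Of 18 adherens junction genes 10 were kept and 0 passed for KO against WT, with a median of -0.43 for the 4 clones together. Medians over all kept genes lay from -0.018 to -0.0005 by clone. In KO1 to KO4 the 10 adherens junction genes had medians of -0.09, -0.19, -0.60 and -0.17. They were called lower in 4, 3, 7 and 4 cases in KO1 to KO4, where 24.9%, 18%, 19.9% and 14.4% of all genes were, and higher in 2, 2, 0 and 1, where 19.2%, 15.5%, 14.2% and 10.4% were. The 3 with the smallest p were N-cadherin (CDH2, -0.64 ± 0.22 SE, adjusted p = 0.224), NECTIN2 (-0.58 ± 0.23, adjusted p = 0.278) and vinculin (VCL, -0.43 ± 0.22, adjusted p = 0.376). E-cadherin (CDH1), the epithelial cadherin and a marker fixed for the cell type, was at -5.86, 1.96, -2.20 and -2.83 in KO1 to KO4, against 0.75, 0.78 and 0.47 in WT1 to WT3. It rose in KO2 and fell in the other clones. Its order of the clones, from KO2 down through KO3 and KO4 to KO1, was also that of several members. These were CGN, TJP3, F11R, CLDN7 and PKP3, while others, such as KRT8 and DSP, had another order. The orders were compared after the values had been seen. EPCAM, another epithelial marker, was at 1.71, 3.88, 3.19 and 1.85 in KO1 to KO4 and at 2.95, 3.04 and 2.85 in WT1 to WT3. EPCAM rose in KO2 and fell in KO1 and KO4. In KO3 EPCAM lay above the WT samples without passing, whereas CDH1 fell there.

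Of 15 polarity genes 11 were kept and 0 passed. PRKCZ, an atypical protein kinase C, had the lowest adjusted p (0.0682), with 0.65, 1.42, 0.17 and 0.08 in KO1 to KO4 and -1.68, -1.87 and -1.97 in WT1 to WT3. It rose in each clone, through which it had been kept. LLGL1 and MPP5 were at 0.33 ± 0.18 (SE, adjusted p = 0.398) and 0.22 ± 0.12 (adjusted p = 0.424). Of 16 further tight junction genes 10 were kept and 0 passed, with MPDZ at 0.53 ± 0.26 (SE, adjusted p = 0.373), MAGI1 at -0.33 ± 0.20 (adjusted p = 0.460) and AMOTL2 at -0.28 ± 0.31 (adjusted p = 0.685). Of 10 regulators of desmosomes and keratin 5 were kept and 0 passed, the nearest being the keratin-binding protein trichoplein (TCHP) at -0.30 ± 0.13 (adjusted p = 0.331), PLEC at 0.25 ± 0.24 (adjusted p = 0.628) and PNN at 0.24 ± 0.23 (adjusted p = 0.638).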

How the data were processed

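Total RNA of BHT-101 cells was made into Illumina TruSeq RNA libraries, per the labels' protocols. The submitters' processing notes name build hg38 and the tools edgeR, HTSeq 0.11.2, STAR 2.5.3a and Trim Galore 0.4.1. Annotation, strand setting, prior count and filters are not given in the sources used here. In 1 table the authors deposited log2 RPKM values of 13142 genes in 7 libraries; here they were entered as another unit than log2 because of their column names, and no value was changed.

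Each library's values fell on steps of whole reads above a prior of 0.25 reads with exon lengths of GENCODE release 29. Within a tolerance of 0.03 reads, 92.9% to 93.1% of values in each library were whole, in 11416 genes (86.9%) in all 7 libraries, and so were those of 35 of 36 members (not MARVELD2). For DSC2 and KRT17 the length was solved from the values. The resulting effective libraries were 44.0 to 70.4 M reads, and reads are printed beside low levels. Reads are not independent molecules, so limits from them cover counting error only.

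A gene needed a log2 RPKM over 0 in 3 or more libraries to be kept, which left 11154 genes and 29 members. Members described as too low to be tested missed this bar, which depends on exon length as well as on reads. With no filter 0 of 36 members passed for KO against WT (limma, lowest adjusted p = 0.139). KO was compared with WT, and each clone with WT, in limma 3.58.1 (R 4.3.3; moderated variances with a trend, two-sided, Benjamini-Hochberg over all kept genes, adjusted p under 0.05). P-values of KO against WT measure the spread between these samples, and those of single clones the spread between the WT samples only. Procedures were tested on simulated data. For the single-clone fits the simulated clones had the spread of the WT samples, so that test does not cover the larger spread seen between the clones. Positions and neighbours came from GENCODE release 29, which placed 12331 genes (93.8%).

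Members and lists were chosen with earlier results of these data known. The naming rule took members called in KO against WT or in all 4 clones, members whose clones all lay on one side of WT by at least 0.5 log2 units, the 3 highest and 2 most changed members of each role group, the 3 largest rises and falls per clone, and up to 3 genes per related list. It named 25 members; 1 member, included in all counts, is not reported here by name. The alternatives were filters, scalings, pseudocounts, the variance prior, neighbours, left-out libraries, a replicate block and voom on recovered reads; the last was chosen after seeing the data.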

Additional observations from a re-analysis of the deposited data

Results flagged for a closer look

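Each of the 36 members was examined for a clone that stood apart from the other 3 by more than Dixon's critical value for 4 samples, and 2 did. CLDN2 was at 0.37 log2 RPKM in KO2, far above the other clones, of which the nearest was at -4.20 and the lowest at -4.75. CLDN3 was at 0.59 in KO2, below the other clones, which lay between 1.35 and 1.47. Chance flags about 1 in 20 groups, and 2 of 36 is near that share.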

How the results depend on the processing

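The count of genes called for KO against WT moved with most choices. It was 46 as reported, 30 with log2 RPKM above 1 required in 3 libraries, 114 after quantile normalization (56.1% of them higher, against 41.3% as reported), 75 on log2 of RPKM plus 1, 1 with neighbours within 5 Mb subtracted, and 29 with voom on recovered reads. With 1 library left out it ranged from 0 (each WT sample) to 236 (KO2), with 51 without KO1, 87 without KO3 and 1 without KO4. The count of members called was 0 in each of these settings except without KO2, where 2 passed. Of members called in single clones, KO3 and KO4 had 17 and 18 as reported, and from 9 to 20 when 1 WT sample was left out, the 9 being without WT2 in both. Replicate numbers do not pair KO with WT samples: KO numbers name clones, and same-numbered samples correlated at 0.049, 0.076 and -0.009 in their deviations. With a replicate block, which drops KO4, 0 genes and 0 members passed.

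Of the log2 fold changes of named members, 426 values over all settings kept their direction and side of the threshold, 2 newly passed (CLDN2 and KRT18, without KO2) and 11 changed sign. Those that changed sign were all within 0.11 of 0 then: TJP1 was -0.010 with neighbours subtracted, -0.026 without WT1, -0.077 without KO1, and -0.030 without KO4 and with the replicate block; EVPL was 0.0072 after quantile normalization. Without KO1, CGN was 0.079, CLDN1 -0.068, EVPL 0.106 and JUP 0.093, and without KO2, CLDN4 was -0.033. With 1 library left out the ranges of these members were -1.16 to 0.079 for CGN, -0.068 to 0.751 for CLDN1, -0.033 to 0.289 for CLDN4, -0.709 to 0.106 for EVPL, -0.628 to 0.093 for JUP and -0.077 to 0.070 for TJP1. The cause was not tested. The median difference of the kept members from WT was -0.81, 0.12, -0.40 and -0.47 in KO1 to KO4. It changed sign in no setting run, but was -0.24 in KO1 and -0.23 in KO4 with no filter, -0.28 in KO1 and 0.04 in KO2 with neighbours subtracted, and 0.22 in KO2 after quantile normalization. Members at or near 0 reads are limited by depth, and their fold changes by the prior count.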

Other observations

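Some neighbouring gene groups had values that the report did not describe; 0 genes of any of them passed for KO against WT (limma), at adjusted p from 0.0827. Among factors that shape epithelial expression, 9 of 22 were kept, with a median of -0.91 for the 4 clones together. By clone the median was -1.46, -0.04, -0.29 and -1.35 in KO1 to KO4. The genes named next had the smallest p of this list, and the fold change was smallest in size for KLF4, at -0.06. KLF5, a zinc finger factor of epithelia, was at 2.91, 2.83, 2.35 and 2.57 log2 RPKM in KO1 to KO4 and at 4.11, 3.36 and 3.26 in WT1 to WT3 (-0.91 ± 0.24 SE, adjusted p = 0.149). GRHL1 was at -0.98 ± 0.38 (adjusted p = 0.279) and ELF3 at -1.44 ± 0.79 (adjusted p = 0.412). ELF3 was at 0.78, 4.74, 3.05 and 2.99 in the clones and at 4.32, 4.19 and 4.48 in WT, so KO2 was the highest clone, as for CGN and KRT8. SNAI2, a repressor of epithelial genes, was at 4.46, 3.00, 2.82 and 3.52 in KO1 to KO4 and at 1.77, 1.36 and 1.09 in WT (2.04 ± 0.39 SE, adjusted p = 0.0827), and rose in each single-clone fit, while SNAI1 fell in KO1 and KO4 and TWIST1 rose in KO1, KO3 and KO4 and fell in KO2.

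Of the gap junction genes 3 of 10 were kept. GJA1 (connexin 43) was at 5.60, 4.60, 5.58 and 5.29 in KO1 to KO4, against 4.50, 4.46 and 4.12 in WT1 to WT3 (0.91 ± 0.25 SE, adjusted p = 0.167), and GJC1 (connexin 45) was above WT in each clone too (0.73 ± 0.16, adjusted p = 0.120). GJB2 was at -0.51 ± 0.42 (adjusted p = 0.582). Of 10 genes of hemidesmosomes and their anchoring laminin, all were kept. LAMA3, a laminin-332 chain, was at 2.28, 4.06, 3.22 and 3.14 in KO1 to KO4, against 4.33, 4.41 and 4.47 in WT (-1.23 ± 0.36, adjusted p = 0.183), and fell in each single-clone fit. LAMB3 was at 0.52 ± 0.36 (adjusted p = 0.503) and ITGB4 at -1.55 ± 1.07 (adjusted p = 0.507). Of the other intermediate filament genes 8 of 14 were kept. NES was at -0.87 ± 0.56 (adjusted p = 0.483), LMNA at -0.22 ± 0.16 (adjusted p = 0.551) and DES at -1.05 ± 1.22 (neither passed). Of 16 genes of the cornified envelope 2 had values and 0 were kept.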
